A study of Mus musculus with 123 samples.

Results

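Transcripts of 10 Z-disc and mechanical stress genes (Ankrd1, Csrp3, Tcap, Myoz2, Ldb3, Pdlim5, Nexn, Synpo2l, Flnc and Xirp1) were measured in single αMHC-GFP+ cells of the developing mouse heart. They were taken by gene symbol from a table of 23337 genes, and all 10 were in it. Only cells in which 2000 or more genes had a count were kept, 112 of 123 in all: 42 cells from embryonic day 9.5 (E9.5), 29 from E12.5 and 41 of 52 from postnatal day 1 (P1). All cells came from hearts of the strain aMHC-GFP, in which the promoter of the αMHC gene Myh6 drives green fluorescent protein, and they were sorted on that fluorescence, so the sort takes cells with Myh6 promoter activity. The study compared the time points to describe how cardiomyocytes (CMs) differ among themselves and with age.

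The Z-disc is the protein plate at the end of each sarcomere, where α-actinin crosslinks the actin filaments of neighbouring sarcomeres and the ends of titin are anchored. It carries the force of contraction from sarcomere to sarcomere, and several of its proteins also sense stretch and report it to signalling pathways and to the nucleus. In the heart, its genes are known for mutations that cause cardiomyopathy and for transcripts that rise under load.

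Each time point counts as 1 sample here, because animals, litters, pools and chips are not given in the labels, and cells are not replicates of a condition. No p-value was therefore computed. Cell titles fall into sets by their prefix, which are called naming sets. The E9.5 cells were 14 of set C and 28 of set N530, the E12.5 cells were 20 of set C, 8 of N523 and 1 of E12-5b, and all P1 cells are of set C. The median cell held 2476022 counts in E9.5, 493238 in E12.5 and 149078 in P1, and within E9.5 the medians were 415427.5 in set C and 3151946 in set N530. The embryonic hearts were digested with collagenase and the P1 hearts with Liberase, so in the comparisons with P1 time point and dissociation cannot be told apart. Levels are given as CPM (counts per 1000000 counts of all genes), pooled over the cells of a time point, with the exact 95% Poisson interval in brackets. That interval covers counting error only, since copies of 1 molecule cannot be told from each other without molecular identifiers. Exact intervals for shares of cells treat the cells as independent draws, so they do not cover differences between animals or preparations. A gene is called higher or lower where its pooled CPM differed at least 2-fold, in 1 direction, in the pooled cells and in every combination of naming sets of 6 or more cells.

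CM genes were present in nearly all cells. The summed level of Tnnt2, Actc1, Myh6, Myh7, Tnni1 and Tnni3, which encode sarcomere proteins of CMs, was under 1000 CPM in 3 E9.5 cells of set C and in 1 P1 cell. In the P1 cell the 8 endothelial markers summed to 7998 CPM, against at most 23.99 CPM in the other 40 P1 cells. The 3 E9.5 cells held counts of 2, 1 and 0 of the 10 genes, and the P1 cell held counts of 2, Pdlim5 at 102 CPM and Csrp3 at 4.86 CPM. A further E9.5 cell of set N530, at 1147 CPM of the CM genes, held 7 of the 10. In the other cells 6 or more of the 10 genes were found at E9.5 and P1, and 4 or more at E12.5. By time point, the median cell held 8, 9 and 9 of the genes, and all 10 were found in 4, 9 and 8 cells. With every cell thinned to 100000 counts the medians were 8, 9 and 8.

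In the cells with CM genes, the summed levels of the marker lists of endothelial cells, fibroblasts, epicardium, red cells and macrophages had medians under 1 CPM at every time point. The 6 smooth muscle markers, which embryonic CMs also express, had a median sum of 4483, 2333 and 1146 CPM in the order of the time points. The 7 atrial markers went from 10081 to 4104 and 380 CPM, and the 5 ventricular markers from 3785 to 6941 and 16791 CPM. The part of the chamber makeup of the cells in the results was not tested.

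Summed over the 10 genes, the level differed between time points by less than the spread between naming sets. It was 7087 CPM in the E9.5 cells, 5611 CPM in those of E12.5 and 6716 CPM in those of P1. The P1/E9.5 log2 ratio was -0.078, with an SD of 0.11 over the combinations of naming sets. Against E12.5, P1 gave 0.26 with an SD of 0.48, and E12.5 against E9.5 gave -0.34 with an SD of 0.40. The genes within the sum moved in different directions, as the plot of CPM by cell shows.

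**Figure D1:**
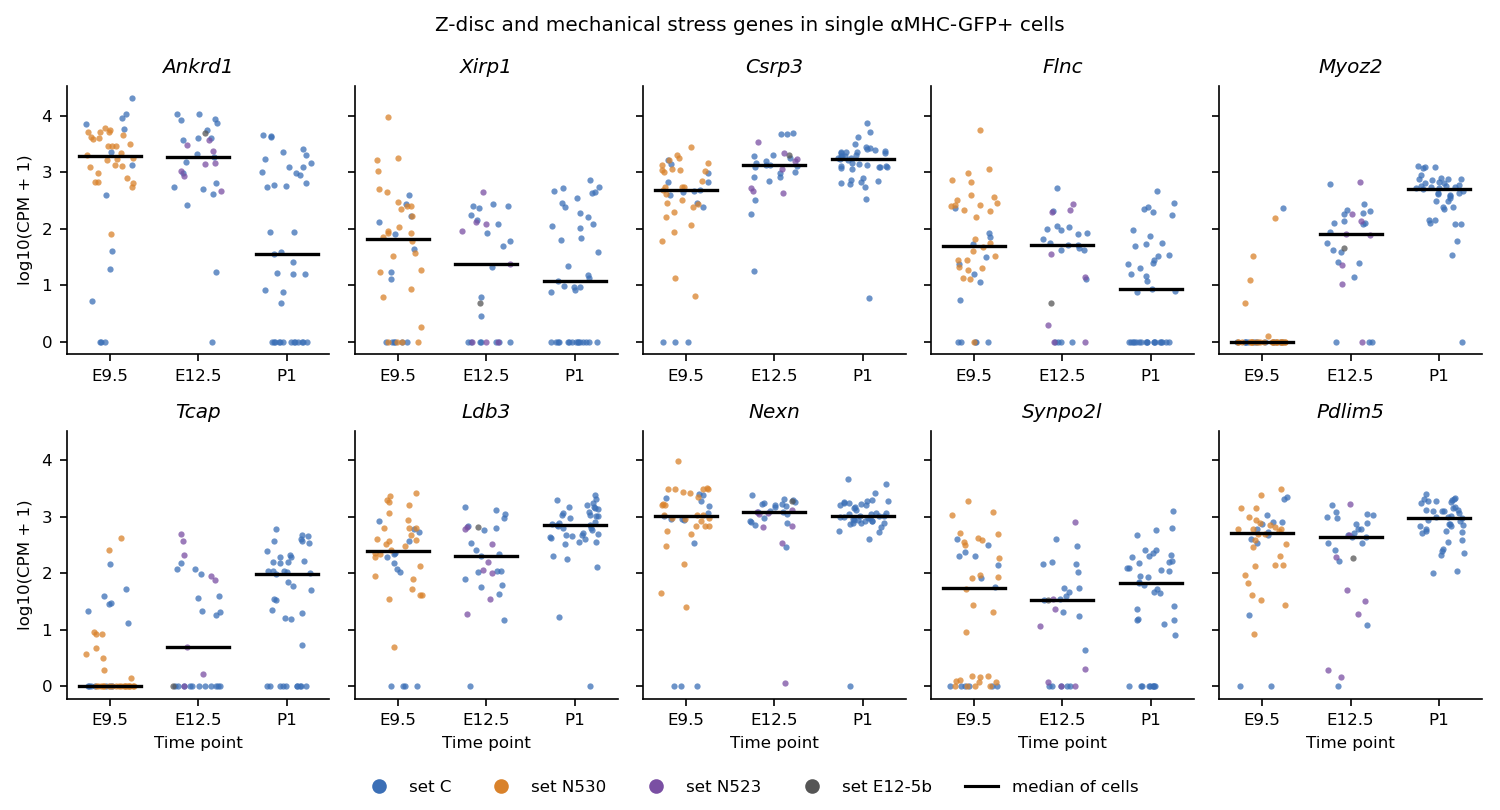
CPM of each gene in each kept cell, as log10(CPM + 1) on the vertical axis, by time point (42, 29 and 41 cells), with colours for naming sets and a black line at the median of the cells. Myoz2 was at 0 in most E9.5 cells and had a median of 510 CPM at P1, while Ankrd1 in P1 cells was either low, at 87.5 CPM or less, or at 552 CPM or more.

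Between P1 and E9.5, 3 of the 10 genes were higher at P1 (Myoz2, Tcap and Csrp3) and 1 was lower (Ankrd1). Over all 9003 genes tested, which reached 10 CPM in the higher of the pair, 13.2% were higher and 26.7% were lower. Between P1 and E12.5, 1 of the 10 was higher (Myoz2) and 1 was lower (Ankrd1), where 15.6% of 8122 genes were higher and 16.2% lower. Between E12.5 and E9.5, 1 was higher (Myoz2) and 0 were lower, where 3.45% of 8647 genes were higher and 10.7% lower. The median log2 ratios of the 10 genes in these comparisons were 0.26, 0.48 and -0.63, and those of all genes tested were -0.59, 0.05 and -0.60. With 10 genes, these shares are too coarse to be set apart from those of all genes. Without the cells lacking CM genes the same genes were called in all 3 comparisons. With TMM scaling (trimmed mean of M values) every log2 ratio moves by 0.17, -0.26 and 0.43 in the same order, which adds Csrp3 as higher between E12.5 and E9.5 (1.24) and leaves the other calls of the 10 as they were.

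**Figure D2:**
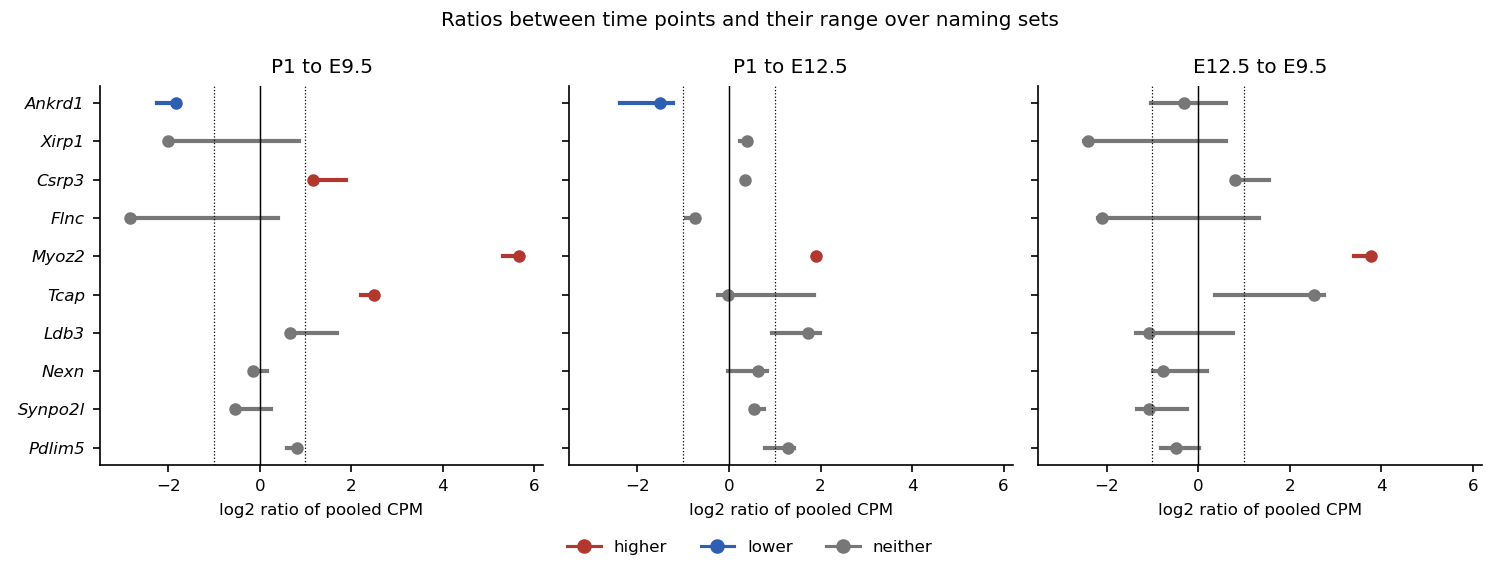
Log2 ratio of pooled CPM for each gene in 3 comparisons (points), with the range over combinations of naming sets (lines) and dotted lines at a 2-fold difference; red marks genes called higher, blue lower and grey neither. Myoz2 stands to the right in all 3 panels, at 5.67, 1.90 and 3.78, and the lines of Xirp1 and Flnc cross 0 in both comparisons with E9.5.

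Myoz2 encodes myozenin 2 (calsarcin-1), which binds α-actinin and the phosphatase calcineurin at the Z-disc. The gene lies on the minus strand at chr3:123006206-123035015 (GRCm38, GENCODE M21). Its level was 9.88 CPM [9.27, 10.5] in the E9.5 cells, 135 CPM [132, 138] in those of E12.5 and 504 CPM [487, 521] in those of P1. Naming sets were close to each other, at 12.7 CPM in C and 9.71 CPM in N530 among E9.5 cells, and at 134 CPM in C and 137 CPM in N523 among E12.5 cells. At E9.5 the level of each set rested on few cells, since all 71 counts of set C came from 1 of its 14 cells and 1 cell of N530 held 78.1% of the counts of its set. Over cells, the lowest, median and highest values were 0, 0 and 228 CPM in the E9.5 cells, 0, 79.4 and 660.3 CPM in those of E12.5 and 0, 510 and 1289 CPM in those of P1. The ranges overlapped, but the P1 median was above every E9.5 cell. P1 was 51-fold above E9.5, a log2 ratio of 5.67 with a range of 5.31 to 5.70 over the naming sets. The step from E9.5 to E12.5 was a log2 ratio of 3.78, and the step from E12.5 to P1 was 1.90. The leading N530 cell held 72.5% of all Myoz2 counts of E9.5, and without it the E9.5 level was 2.84 CPM. At E12.5 a cell of set N523 held 44.96%, and without it that level was 82.0 CPM. Without the leading cell of each time point, an alternative chosen after seeing the data, the log2 ratios were 7.40 for P1/E9.5, 4.85 for E12.5/E9.5 and 2.55 for P1/E12.5, each above the pooled value. Counts of Myoz2 were found in 6 of the 42 E9.5 cells (14.3%, exact 95% interval 5.43 to 28.5%), in 25 of the 29 E12.5 cells (86.2%) and in 40 of the 41 P1 cells (97.6%, 87.1 to 99.9%). The P1 cell without it was the one lacking CM genes. The P1 cells were the shallowest, and after thinning the shares were 9.52%, 86.2% and 97.4%.

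The RefSeq promoter table (GRCm38.p6) has windows for 7 of the 10 genes, all but Xirp1, Tcap and Nexn. The 250 bases before each start were searched on both strands for the MCAT element (CATTCC, read GGAATG on the other strand), which TEAD factors bind, and for the CArG box of serum response factor, both of them elements of muscle promoters. A match is a description of the letters, and binding was not measured.

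Tcap encodes telethonin, which caps the ends of titin in the Z-disc, and lies on the plus strand at chr11:98383811-98384953. Its level was 22.8 CPM [21.9, 23.8] in the E9.5 cells, 132 CPM [129, 135] in those of E12.5 and 129 CPM [121, 138] in those of P1. The lowest, median and highest cells stood at 0, 0 and 429 CPM in the E9.5 cells, at 0, 3.90 and 486 CPM in those of E12.5 and at 0, 97.6 and 619 CPM in those of P1. Only the P1 median was well above 0, and the ranges overlapped. The P1/E9.5 log2 ratio was 2.50, with a range of 2.22 to 2.52, and without the leading cell of each time point, which held 56.3% of the E9.5 counts, it was 3.51. E12.5 cannot be placed between them, since its sets differed, with 35.9 CPM in C and 153 CPM in N523. Accordingly the log2 ratio of E12.5 to E9.5 ran from 0.37 to 2.76 over the sets, and P1/E12.5 ran from -0.24 to 1.85. Tcap was found in 17 of the 42 E9.5 cells (40.5%), 16 of the 29 E12.5 cells (55.2%) and 31 of the 41 P1 cells (75.6%, 59.7 to 87.6%). Thinned to the same depth, the shares were 23.8%, 51.7% and 73.7%.

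Csrp3 encodes muscle LIM protein, a Z-disc protein linked to stretch sensing, and lies on the minus strand at chr7:48830398-48848033. Its level was 823 CPM [818, 829] in the E9.5 cells, 1442 CPM [1431, 1452] in those of E12.5 and 1833 CPM [1801, 1865] in those of P1. The lowest, median and highest cells were at 0, 490.1 and 2791 CPM in the E9.5 cells, at 16.8, 1321 and 4897 CPM in those of E12.5 and at 4.86, 1698 and 7494 CPM in those of P1. The 3 E9.5 cells at 0 were those lacking CM genes, and so was the lowest P1 cell. The ratio of P1 to E9.5 was 2.23-fold, a log2 ratio of 1.15 with a range of 1.12 to 1.89. This is close to the 2-fold limit, and with means of the deposited TPM (transcripts per 1000000, a level per transcript length) the value was 1.13 but it missed 2-fold in a combination of sets. The ratios of E12.5 to E9.5 (0.81) and of P1 to E12.5 (0.35) were under 2-fold. Csrp3 was found in 39 of 42, 29 of 29 and 41 of 41 cells. Its RefSeq windows hold neither element.

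Ankrd1 encodes cardiac ankyrin repeat protein, which binds the spring region of titin and also enters the nucleus, and whose transcript is a known marker of mechanical load. It lies on the minus strand at chr19:36111961-36120099. Its level was 2622 CPM [2612, 2632] in the E9.5 cells, 2105 CPM [2093, 2118] in those of E12.5 and 742 CPM [721, 762] in those of P1. Of the E9.5 cells, set C was at 3526 CPM and N530 at 2569 CPM, and of the E12.5 cells, set C was at 3883 CPM and N523 at 1719.8 CPM. Every embryonic set was thus above P1. The lowest, median and highest cells were at 0, 1928 and 20389 CPM in the E9.5 cells, at 0, 1855 and 10881 CPM in those of E12.5 and at 0, 34.9 and 4549 CPM in those of P1. The P1 median was lower than the embryonic ones by far more than the pooled level was, although the ranges overlapped. P1 was 3.54-fold below E9.5, a log2 ratio of -1.82 with a range of -2.25 to -1.79, and 2.84-fold below E12.5, a log2 ratio of -1.51 with a range of -2.39 to -1.21. E12.5 and E9.5 differed by -0.32, which is within the SD of 0.73 over their sets. Ankrd1 was found in 39 of 42 cells (92.9%), 28 of 29 (96.6%) and 28 of 41 (68.3%, 51.9 to 81.9%), and the shares of the thinned cells were 92.9%, 96.6% and 60.5%.

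The Ankrd1 window holds MCAT elements at positions -210 to -205 and -123 to -118 from the RefSeq start. They are printed in stretches of 30 bases, at chr19:36120037-36120066 and chr19:36119950-36119979 on the minus strand, which lie within the first exon of 1 of the GENCODE transcript models and upstream of the others. These are shown because Ankrd1 was the gene of the 10 called lower at P1 than at E9.5, and the capitals mark the elements.

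Ankrd1 MCAT, distal: gtcactgccaaaGGAATGaccctctcacat
Ankrd1 MCAT, proximal: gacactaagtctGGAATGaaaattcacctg

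An MCAT element occurs in 12.6% of the 32851 promoter windows of the table. Among the 10 genes 1 of the 2 Flnc windows also holds one.

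Ankrd1 divided the P1 cells. In 24 of the 41 cells it was at 87.5 CPM or less, with 13 of them at 0, and in the other 17 cells it lay between 552 and 4549 CPM. No cell lay between these values, and the limit was placed at this gap after it was found in the same values. At E9.5 too no cell lay between 80.7 and 401 CPM of Ankrd1, but there the lower quartile was 678 CPM. The median total count was 144361.5 in the lower cells and 150679 in the upper ones, so depth was similar. Sln, which encodes sarcolipin and is an atrial transcript in the mouse heart, was at 10 counts or more in 7 P1 cells. Of these, 6 had Ankrd1 at 1026 CPM or more, and the other one, with 19 Sln counts and 6790 CPM of the ventricular light chain gene Myl2, had 3.94 CPM. Of the 34 other P1 cells, 11 were above the gap. The labels give no chamber, and these are cells of 1 sample.

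**Figure D3:**
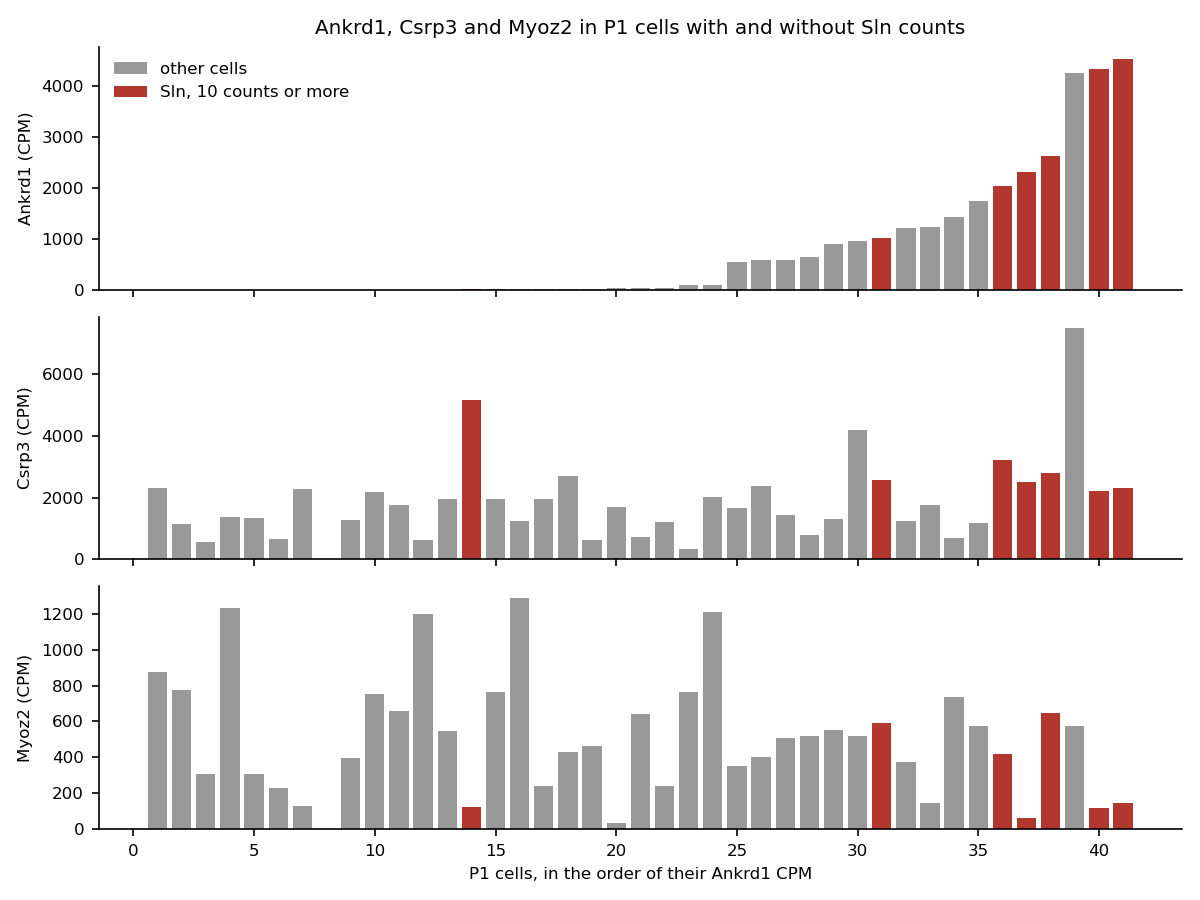
Ankrd1, Csrp3 and Myoz2 in CPM (vertical axes, from 0) in each of the 41 P1 cells, ordered along the horizontal axis by Ankrd1, with cells at 10 or more Sln counts in red. 6 of the 7 red cells are among the 17 cells with Ankrd1 at 552 CPM or more, and all 7 have Csrp3 at 2204 CPM or more.

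The Sln-positive P1 cells also differed from the rest in other genes of the group, by pooled values and without a test. Ankrd1 was at 2306 CPM in the 7 cells and 387 CPM in the 34 others. Csrp3 was at 3082 CPM against 1549 CPM, Tcap at 214 against 110 CPM and Xirp1 at 199.9 against 100.02 CPM. The Sln-positive cell lowest in Csrp3, at 2204 CPM, was above the Csrp3 median of the others, 1364 CPM, although a cell of the others reached 7494 CPM. Myoz2 was at 275 CPM in Sln-positive cells and 556 CPM in the others, and Ldb3 was at 542 and 913 CPM. Nexn, at 1304 and 1315 CPM, and Flnc, at 48.4 and 49.8 CPM, were nearly equal. For all 10 genes the ranges over cells overlapped. The Sln-positive cell with 19 Sln counts had the highest Csrp3 of the 7, at 5176 CPM, and with 100 Sln counts as the minimum Csrp3 was at 2554 against 1708 CPM. The ratio of Sln-positive to other cells then fell from 1.94 to 1.43 for Tcap, and it was 7.80 for Ankrd1 and 2.17 for Xirp1. Without the P1 cell lacking CM genes the log2 ratio of Sln-positive to other cells was 2.52 for Ankrd1, 0.94 for Csrp3 and -1.07 for Myoz2. At E12.5 the split gave 3 Sln-positive cells in set C and 3 in set N523. Their ratios to the other cells, in C and N523, were 1.36 and 1.03 for Ankrd1 and 0.21 and 0.99 for Xirp1. Csrp3 was at 1.14 and 1.51, Tcap at 1.16 and 1.41, Ldb3 at 1.99 and 2.17, and Myoz2 at 0.44 and 5.43. The P1 differences were thus repeated only in part. The limit of 10 counts follows depth. In set C of E12.5 it took cells at 26.4 and 27.2 CPM of Sln as positive and left out one at 60.7 CPM.

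Ldb3, Pdlim5, Nexn and Synpo2l encode proteins that bind α-actinin or actin at the Z-disc, and none of them was called in any comparison. Ldb3 encodes the PDZ and LIM domain protein ZASP (Cypher) and lies on the minus strand at chr14:34526603-34588682. Its level was 534 CPM [529.8, 539] in the E9.5 cells, 255 CPM [251, 259.9] in those of E12.5 and 845 CPM [823, 867] in those of P1. Its cells ran from 0 to 2638 CPM around a median of 247 CPM in the E9.5 cells, from 0 to 1498 CPM around 205 CPM in those of E12.5 and from 0 to 2410 CPM around 702 CPM in those of P1. P1 had the highest median, with wide overlap. The P1/E12.5 log2 ratio was 1.73, but it was 0.93 against set C and 1.98 against set N523, so that it just missed the call. Under some alternatives it was called higher, among them those with means of cell CPM (1.15), in thinned cells (1.16) and with 1000 genes as the minimum (1.80). Ldb3 was found in 38 of 42, 28 of 29 and 40 of 41 cells. Its windows share a CArG box, shown because it is the only one among the 7 genes. The stretch of 30 bases printed, at chr14:34588697-34588726 on the minus strand, has the box in capitals.

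Ldb3 CArG: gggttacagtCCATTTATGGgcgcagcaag

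A CArG box occurs in 1.47% of all promoter windows.

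Pdlim5 encodes ENH, a PDZ and LIM domain scaffold that also binds protein kinase C, and lies on the minus strand at chr3:142239590-142395696. Its level was 597 CPM [592, 602] in the E9.5 cells, 424 CPM [418, 429.5] in those of E12.5 and 1043 CPM [1019, 1068] in those of P1. Every P1 cell held it, at 102 CPM or more, with a median of 941 CPM, and it was found in 40 of 42 and 28 of 29 embryonic cells with medians of 511 and 447 CPM. The level at E12.5 rested on few cells, as a single cell of set N523 held 60.4% of the counts and the level without it was 198 CPM. The P1/E9.5 log2 ratio was 0.80, with a range of 0.60 to 0.82, and against E12.5 the ratio was 1.30, with a range of 0.80 to 1.41.

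Nexn encodes nexilin, an actin-binding Z-disc protein, and lies on the minus strand at chr3:152236982-152266350. It was the steadiest of the abundant genes, with 1448 CPM [1440.3, 1455] in the E9.5 cells, 850.4 CPM [842, 858] in those of E12.5 and 1313 CPM [1286, 1341] in those of P1. Median cells were at 1040.2, 1233 and 1037 CPM, and no cell exceeded 9813, 2390 and 4693 CPM. The P1/E9.5 log2 ratio was -0.14, less than the SD of 0.23 over the sets. Nexn was found in 39 of 42, 29 of 29 and 40 of 41 cells, and those without it lacked CM genes. In GENCODE it shares 287 exonic bases with Gm43185 on the same strand, which is not a row of the count table.

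Synpo2l encodes CHAP, an α-actinin-binding PDZ protein, and lies on the minus strand at chr14:20658946-20668354. It was at 202 CPM [199, 205] in the E9.5 cells, 95.5 CPM [92.8, 98.2] in those of E12.5 and 140 CPM [131, 149] in those of P1. The medians over cells were 54.1, 32.8 and 66.4 CPM and the highest cells reached 1878, 822 and 1272 CPM. At E12.5 1 cell of set N523 held 79.3% of the counts, and without it the level was 21.8 CPM. The log2 ratios of P1 to E9.5 (-0.53) and to E12.5 (0.55) were under 2-fold, and that of E12.5 to E9.5 was -1.08 with a range of -1.33 to -0.25 over the sets. It was found in 32 of 42, 22 of 29 and 32 of 41 cells.

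In the comparisons with E9.5, Flnc and Xirp1 gave the widest spread between naming sets. Flnc encodes filamin C, a crosslinker of actin that unfolds under tension and is turned over in strained muscle, and lies on the plus strand at chr6:29433256-29461883. Its level was 352 CPM [349, 356] in the E9.5 cells, 82.4 CPM [79.9, 85.0] in those of E12.5 and 49.6 CPM [44.4, 55.1] in those of P1. At E9.5 it was 37.7 CPM in set C and 371 CPM in set N530, where 1 cell reached 5501 CPM and held 42.4% of all E9.5 counts. Without that cell the E9.5 level was 209 CPM. The P1/E9.5 log2 ratio was -2.83 in the pooled cells, but it was 0.39 against set C and -2.90 against set N530. Since the direction turned with the set, no direction is given. Median cells were at 49.2, 50.1 and 7.75 CPM, and the gene was found in 36 of 42 (85.7%), 23 of 29 (79.3%) and 23 of 41 cells (56.1%, 39.7 to 71.5%).

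Xirp1 encodes Xin, an actin-binding protein of the intercalated disc and of sites of muscle damage, and lies on the minus strand at chr9:120013755-120023598. Its level was 475 CPM [471, 479] in the E9.5 cells, 89.6 CPM [87.0, 92.2] in those of E12.5 and 118 CPM [110.5, 127] in those of P1. As for Flnc, set C at E9.5 was low, at 65.8 CPM, and set N530 was high, at 499 CPM, where another cell reached 9637 CPM. That cell held 58.2% of all E9.5 counts, and without it the E9.5 level was 204 CPM. The next cell of that time point was at 1779 CPM. The P1/E9.5 log2 ratio was -2.003 in the pooled cells, 0.85 against set C and -2.07 against set N530. Median cells were at 63.8, 23.0 and 10.8 CPM, and Xirp1 was found in 32 of 42, 19 of 29 and 26 of 41 cells. Without the leading cell set N530 was at 213 CPM. At E12.5 a cell of set N523 held 49.96% of the Xirp1 counts, and without it that level was 49.9 CPM. The part of depth in the gap between the E9.5 sets was not tested.

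**Figure D4:**
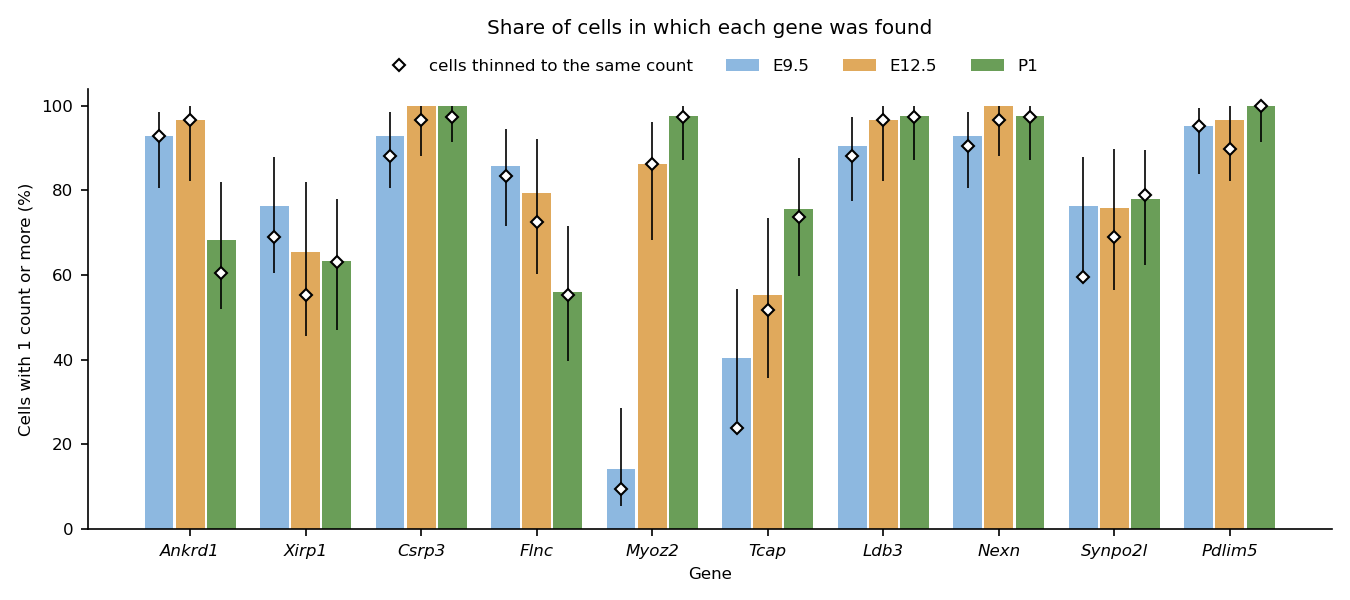
Share of cells with 1 count or more of each gene, in percent, at each time point (bars, with exact 95% binomial intervals) and in cells thinned to 100000 counts (diamonds). Myoz2 goes from 14.3% to 86.2% and 97.6%, Tcap from 40.5% to 75.6%, and Ankrd1 stands at 68.3% at P1 against 92.9% at E9.5.

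Levels of different genes were compared per transcript length, by the mean of the deposited TPM over cells. At E9.5 the order was led by Ankrd1 (3851 TPM), Csrp3 (1467 TPM) and Nexn (1345 TPM), and Pdlim5 followed at 216 TPM. Ankrd1 was above Csrp3 in both naming sets, as its lower set mean was 3318 TPM and the higher one of Csrp3 was 1622 TPM. Csrp3 was above Nexn in each set, at 1158 against 922 TPM in C and 1622 against 1557 TPM in N530, but by less than either gene differed between the sets. Pdlim5, Ldb3 and Xirp1, at 216, 199 and 176 TPM, changed their order with the set, and Tcap (52.3 TPM) and Myoz2 (15.8 TPM) had the lowest means over all cells. In set C, however, Flnc (8.28 TPM) was below both Myoz2 (28.4 TPM) and Tcap (53.4 TPM). At E12.5 Ankrd1 (3393 TPM) and Csrp3 (3022 TPM) led, with Ankrd1 the higher in set C and Csrp3 in set N523, and Myoz2 was the fourth at 198 TPM over all cells, although Tcap (264 TPM) was above Myoz2 (210 TPM) in set N523. At P1 Csrp3 led with 3211 TPM, and the quartiles of its cells, 1957 and 3992 TPM, lay above those of every other gene of the group. Nexn (829 TPM), Ankrd1 (725 TPM) and Myoz2 (722 TPM) came next and were close to each other, but by medians over cells Myoz2 (718 TPM) was the second and Ankrd1 (30.3 TPM) the seventh. Pdlim5, Ldb3 and Tcap lay together at 254, 235 and 228 TPM, with overlapping quartiles, and Flnc was the last at 9.22 TPM.

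**Figure D5:**
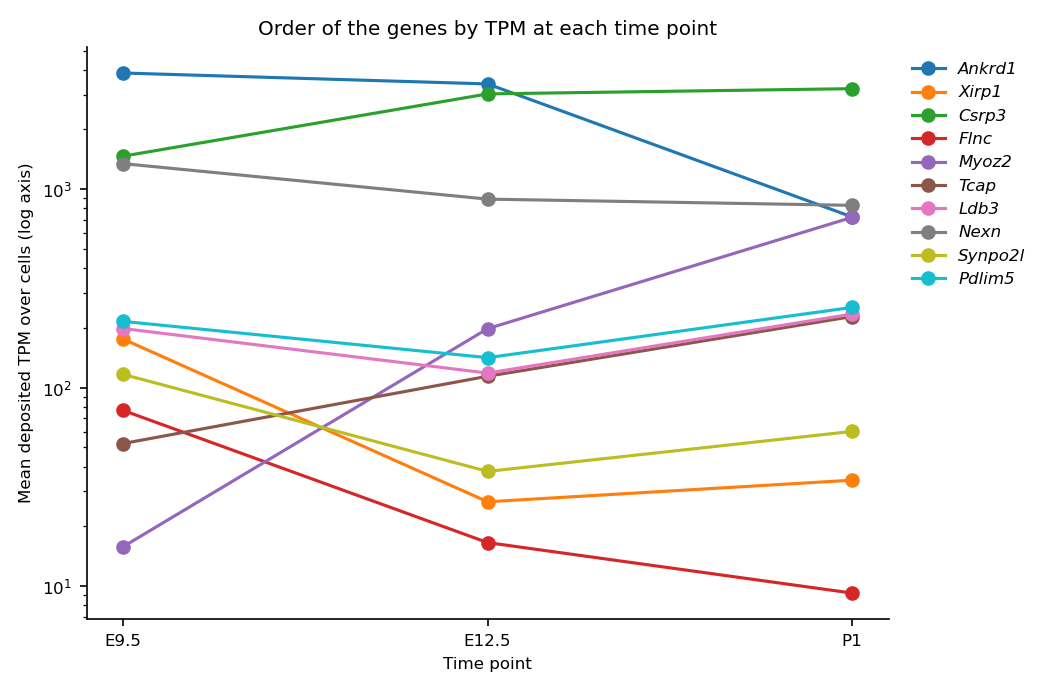
Mean deposited TPM over cells of each gene (vertical axis, log scale) at E9.5, E12.5 and P1, joined by lines. Myoz2 moves from the lowest mean over all E9.5 cells (15.8 TPM) to 722 TPM at P1, beside Ankrd1 (725 TPM), which comes from 3851 TPM, while Csrp3 is the highest at P1 (3211 TPM).

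Other genes of the Z-disc were called in both directions, as were genes at large. Of 30 further Z-disc genes, 26 were tested between P1 and E9.5, of which 5 were higher and 6 lower, where 13.2% of all genes tested were higher and 26.7% lower. Their median log2 ratio was 0.43, and that of all genes was -0.59. The genes with the largest ratios were Xirp2, the relative of Xirp1 (35.05 against 1.05 CPM, found in 4 P1 cells), Ankrd23, a relative of Ankrd1 (10.1 against 0.911 CPM), and the LIM domain gene Fhl2 (1322 against 233 CPM). Among the lower ones Csrp1, the smooth muscle relative of Csrp3, was at 2.20 against 38.5 CPM. Synpo2, the relative of Synpo2l, was at 2.35 against 29.3 CPM, and Flna, the widely expressed filamin, was at 34.02 against 315 CPM. Between P1 and E12.5, 4 of 26 were higher and 5 lower, against 15.6% and 16.2% of all genes. Between E12.5 and E9.5, 2 of 25 were higher and 1 lower, against 3.45% and 10.7%.

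Of 16 costamere genes, which link the Z-disc to the membrane, 13 were tested between P1 and E9.5, and 3 were higher and 1 lower, against 13.2% higher and 26.7% lower over all genes. The median log2 ratio was -0.04, against -0.59. Dmd, which encodes dystrophin, was at 618 CPM at P1, 73.9 CPM at E12.5 and 6.09 CPM at E9.5, a log2 ratio of 6.67 between P1 and E9.5. Sgca, which encodes α-sarcoglycan, was at 52.8 against 9.31 CPM, with counts in 3 of 42 E9.5 cells. At E12.5 Sgca was at 309 CPM, above P1, from 3 cells of set N523, with 0 counts in set C. The integrin adaptor gene Parva was at 46.3 CPM at P1 against 214 CPM at E9.5. Of the 13 costamere genes tested between P1 and E12.5, 4 were higher and 1 lower (15.6% and 16.2% of all genes), and of the 13 tested between E12.5 and E9.5, 2 were higher and 1 lower (3.45% and 10.7%).

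Of 10 genes known to respond to stretch or load, 1 was higher and 6 were lower at P1 than at E9.5, again beside 13.2% and 26.7% of all genes. The median log2 ratio was -1.30, and the median of all genes was also below 0, at -0.59. Myh7, which encodes the fetal myosin heavy chain of the mouse ventricle, was at 297 against 4114 CPM, although it was at only 782 CPM in set C of E9.5. The skeletal actin gene Acta1 was at 177 against 2273 CPM, with counts in 9 P1 cells, and the matricellular gene Cyr61 at 20.8 against 200.2 CPM. Nppa, which encodes atrial natriuretic peptide, was higher, at 7727 against 2561 CPM, and a P1 cell reached 120233 CPM of it. Its pooled level and its median cell went opposite ways, since the median was 23.6 CPM at P1 and 477 CPM at E9.5. In the Sln-positive P1 cells Nppa was at 38159 CPM and in the others at 824 CPM, between the E9.5 levels of 467 CPM in set C and 2684 CPM in set N530. Between P1 and E12.5, 0 of the 10 were higher and 6 lower, where 15.6% and 16.2% of all genes were. Between E12.5 and E9.5, 0 were called in either direction, where 3.45% were higher and 10.7% lower.

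Across P1 cells the 10 genes showed little shared variation. In P1 cells with CM genes, thinned to 100000 counts, the median Spearman rho over the 45 pairs was 0.01, and 24 pairs were above 0. The medians were 0.17 and 0.10 in sets C and N530 of E9.5 and 0.12 in set C of E12.5. The lowest P1 pair was Tcap and Ldb3, at -0.31. Ankrd1 and Synpo2l were the highest of the 45 P1 pairs, with a rho of 0.46 over 37 cells. It was 0.39 over 11 cells of set C and 0.23 over 28 cells of set N530 at E9.5, and -0.12 over 20 cells of set C at E12.5. Among 2029 other genes, found in at least 50% of the 38 thinned P1 cells, the pattern most like the summed CPM of the 10 was that of Smpx, with a rho of 0.66. These 38 cells include the one lacking CM genes, and its part in the rho was not tested. Smpx encodes a small muscle protein of the costamere region. It is among the 30 further Z-disc genes and was at 1573 CPM at P1, 954 CPM at E12.5 and 450.4 CPM at E9.5. Gm2a, which encodes a lysosomal lipid-binding protein, had a rho of 0.53. These values describe cells of 1 sample, which share library preparation and are scaled to a common total. Flnc and Xirp1, with P1 medians of 7.75 and 10.8 CPM, had few counts per thinned cell. Counting noise can lower rho for such genes.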

How the data were processed

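RNA of single αMHC-GFP+ cells was reverse transcribed and amplified on a Fluidigm C1 instrument (SMART-Seq V4), and libraries were read for 75 bases from 1 end. Mapping was with OLego. The authors deposited 1 table of read counts per gene symbol, and 1 of TPM computed from them with their own scripts. The submitters' processing notes name featureCounts and the build GRCm38 (mm10). The deposited TPM are linear, sum to 1000000 in every column and are 0 exactly where the count is 0. No columns were identical, and all columns matched a sample title. In sets C and N530 of E9.5, 6 capture-site names recur, and in sets C and N523 of E12.5, 3 do.

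The 10 genes and all gene lists were chosen with earlier results of these data known. All 10 are named. Of the other Z-disc, costamere and stretch lists, the 3 called genes with the largest ratio of P1 to E9.5 in each direction are named, and for likeness the 3 genes with the highest rho, except for a few items, a further promoter motif among them, that are not reported here. Dates of capture, chips and animals are not given in the labels, so cells of a time point were pooled and no test was run. Total counts of kept cells ran from 69522 to 7711355. Pooled CPM carry exact Poisson and shares exact Clopper-Pearson intervals at 95%, and 3 counts of the total is the limit that 0 counts allow (0.440 CPM of the pooled P1 cells). Thinning to 100000 counts (seed 1) left out 3 P1 cells. TMM factors came from edgeR 4.0.16 in R 4.3.3, and other steps used Python 3.11.15, pandas 2.3.3, numpy 2.4.6 and scipy 1.17.1. Scripts were tested on simulated data. Positions come from GENCODE M21, and promoter windows from RefSeq.

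The alternatives tried were a minimum of 1000 or 3000 genes, the mean over cells of their CPM, TMM, TPM and thinned cells. Further ones were cells without titles ending in "no" or without those lacking CM genes, and single naming sets. Other limits for a call or a found gene were also tried, as was leaving out the leading gene. Not planned beforehand were leaving out cells under 2000 CPM of CM genes and, after seeing the data, the leading cell of each time point.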

Additional observations from a re-analysis of the deposited data

Results flagged for a closer look

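The comparisons leave out 11 P1 cells with fewer than 2000 genes (1091 to 1985 genes, 4903 to 149120 counts), and the genes of the group were also found in them, above the limit that 0 counts allow. No negative control cells were labelled. Pooled over these 11 cells, the 10 genes summed to 6153 CPM. Csrp3 was at 1459 CPM, Nexn at 1396 CPM, Ldb3 at 1336 CPM, Myoz2 at 912 CPM and Pdlim5 at 684 CPM. The lower ones were Tcap at 130.1 CPM, Xirp1 at 124 CPM, Flnc at 57.3 CPM and Synpo2l at 48.96 CPM. Ankrd1 was at 5.59 CPM, from 4 counts in 1 of the 11 cells (95% Poisson interval 1.52 to 14.3 CPM), while it was found in 28 of the 41 kept P1 cells.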

How the results depend on the processing

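All 7 calls of single genes kept their direction and at least a 2-fold difference under 12 of 12 alternatives. Those with single naming sets could not fail, since a call already needs 2-fold in every combination of naming sets. The call itself, which also needs every combination of naming sets, was lost for Csrp3 (P1 to E9.5) with deposited TPM, at 1.13, and for Ankrd1 (P1 to E12.5) with 3000 genes as the minimum, at -1.19. The number of genes called between P1 and E9.5, 4 in the main setting, was 3 with TPM, 5 with set C (Ldb3 added as higher), 6 with sets N530 and N523 (Flnc at -2.90 and Xirp1 at -2.07 added as lower), 6 at 1.5-fold and 2 at 4-fold. Between P1 and E12.5, 2 became 4 with sets N530 and N523 in place of set C, 5 at 1.5-fold and 0 at 4-fold. Between E12.5 and E9.5, 1 became 2 with TMM, 2 at 1.5-fold, 3 with set C and 6 with sets N530 and N523. The summed P1/E9.5 log2 ratio (-0.078) was 0.090 with TMM, -0.25 with TPM, 0.068 with set C and 0.42 without Ankrd1. That of P1 to E12.5 (0.26) was -0.34 with TPM, -0.27 with set C and 0.77 without Ankrd1, and that of E12.5 to E9.5 (-0.34) was 0.093 with TMM, 0.083 with TPM and 0.34 with set C. The cause of these differences was not tested. Of the ratios of single genes under alternatives, 283 moved by less than the spread between sets and 77 by more. No paired analysis was possible because no test was made and the naming sets pair no samples. Of the time points P1 had the lowest depth, and its shallowest kept cell had 69522 counts, so that genes of low level can be missed in a cell.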
